A study of Mus musculus with 12 samples.

Results

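CT26 cells, a mouse colon carcinoma line, were compared with and without the chemokine CX3CL1 (fractalkine) across all genes measured by RNA sequencing. The comparison used 6 of the 12 libraries of the series, which were the 3 libraries of cells given CX3CL1 alone (2 µg/ml) and the 3 libraries of cells left without treatment. The other 6 libraries, 3 with IFN-γ (100 ng/ml) and 3 with IFN-γ and CX3CL1 together, appear below only beside a CX3CL1 value. All treatments lasted 8 h. The labels name no edited gene, and all groups share the same line and culture medium. The table gives TPM for 23636 gene symbols, that is, levels per transcript length that add up to 1000000 in each library. They carry no read depth, so the precision of a value is the spread over 3 libraries. TPM are also shares, so a rise of abundant transcripts lowers all other values. A value of 0 can be a failed estimate, since RPL26, a ribosomal protein gene, is listed at 0 in all 12 libraries.

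CX3CL1 is made as a membrane protein with a chemokine head, can be shed by the proteases ADAM10 and ADAM17, and signals through the G protein-coupled receptor CX3CR1, best known on monocytes, microglia and cytotoxic lymphocytes. NF-kB is a family of dimeric transcription factors held in the cytoplasm by IkB proteins. Its activation raises chemokine, cytokine and survival genes, and also the genes of its own inhibitors. Interferons act through factors of the JAK-STAT pathway and raise a large set of antiviral and antigen presentation genes, the interferon-stimulated genes, through promoter sites called ISRE and GAS.

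The genes were tested on log2(TPM + 1) with limma, in 1 fit to all 12 libraries, for the 11878 genes that averaged 0.2 TPM or more. A gene was called at a Benjamini-Hochberg adjusted p under 0.05, and a log2 fold change is the difference of group means of log2(TPM + 1) with its standard error (SE), a scale on which low genes change less than their TPM. With 3 libraries against 3, an exact permutation test cannot give a two-sided p under 0.1, so the calls depend on limma sharing spread across genes. The labels call the replicates biological without saying whether they are separate cultures, so the p-values measure the spread between these libraries. Levels in bulk RNA cannot tell fewer cells with a transcript from less of it per cell. The CX3CL1 receptor gene CX3CR1 was near the floor of the table, at 0.0439, 0.0596 and 0.122 TPM without treatment and 0.0137, 0.102 and 0.0698 TPM after CX3CL1. The ligand gene CX3CL1 had 0.0178, 0 and 0 TPM without treatment and 0.0166, 0 and 0.0121 TPM after CX3CL1. Both genes were below the filter and were not tested. By flow cytometry the study reports high CX3CR1 on CT26 cells, a protein measure that these RNA levels do not replace. It also reports less CXCL1 and M-CSF secretion, and less IL-6 and NLRP3 mRNA, with a CX3CR1 antibody.

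The identity of the cells was checked on marker genes. VIM, an intermediate filament of mesenchymal cells, stood at 4034, 4831 and 3658 TPM without treatment, and KRT18, a keratin of simple epithelia, at 34.1, 48.3 and 53.6 TPM. The epithelial adhesion gene EPCAM was listed at 0 in all 12 libraries and the intestinal factor CDX1 at 0 in all 6 compared here. These genes gave no signal in the table, with the limit on values of 0 given above. They come from a list of 13 carcinoma markers, of which 6 passed the filter, the keratins KRT18 and KRT20 among them. Among 24 leukocyte markers, CD3E and TYROBP were listed at 0 in every library, and PTPRC, the pan-leukocyte CD45 gene, was at most 0.0219 TPM in the 6 libraries. Of the 24, 6 passed the filter, MRC1 among them, so the genes named here do not stand for the list. The summed level of the 24 ran from 11.4 to 19.3 TPM without treatment and from 12.4 to 25.1 TPM with CX3CL1. CX3CL1 replicate 2 differed most from its group, since its log2 values lay at the median 0.266 and 0.262 away from those of replicates 1 and 3, which were 0.141 apart, so counts are also given without it.

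After CX3CL1, 212 genes were called higher, which is 1.78% of the genes tested, and 20 were called lower, which is 0.168%. In all 232 the 3 CX3CL1 libraries lay on 1 side of the 3 untreated ones. Among all genes tested, the CX3CL1 libraries lay above the untreated ones for 653 genes (5.5%) and below for 681 (5.73%), so rises and falls of this kind were about equally common, while calls were far more often rises. The called rises had a median log2 fold change of 1.27, from 0.47 to 6.17, and 141 of them reached 1. The called falls were smaller, with a median of -0.61 and an extreme of -1.21, and 2 reached a size of 1. The median over all genes tested was -0.02. Of the 11878 genes tested 5317 were above 0, the share to set beside counts above 0 in the lists below. Without CX3CL1 replicate 2, 230 genes were called higher and 38 lower, among them 195 of the 212 and 14 of the 20. The count of lower genes was 11 and 8 when untreated replicate 2 or 3 was left out, and 13 and 9 when CX3CL1 replicate 1 or 3 was left out. The count of higher genes stayed between 144 and 230 without any 1 of the 6 libraries. All these counts take no account of the replicate number. With libraries blocked by that number, 347 rises and 108 falls passed the threshold, including all 212 and all 20. The rises and falls described below, and the calls missed or lost, are those of unblocked fits.

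**Figure D1:**
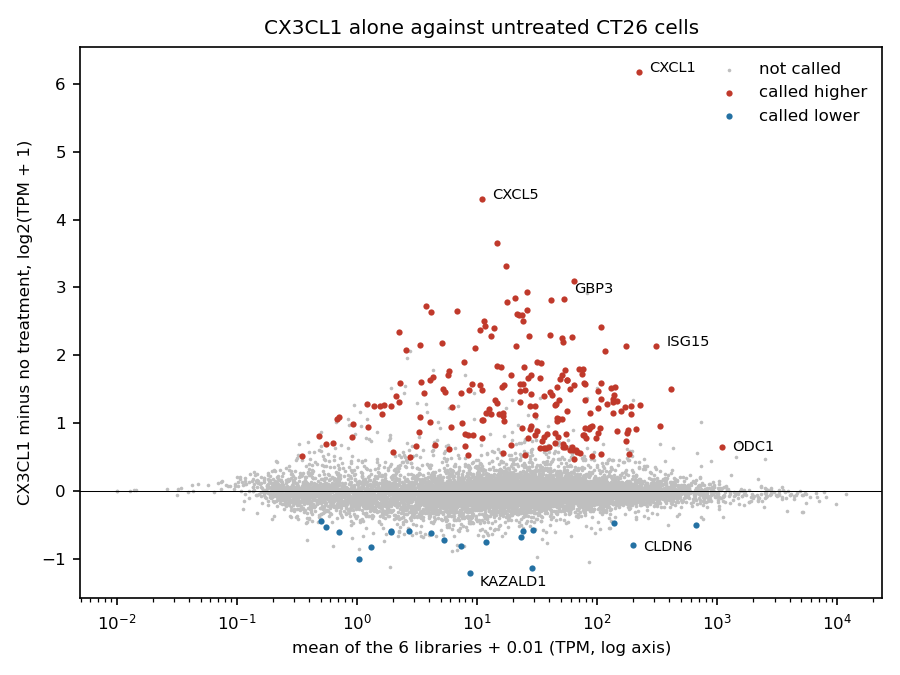
Log2 fold change of each tested gene (CX3CL1 minus no treatment, vertical axis) against its mean TPM over the 6 libraries (log axis). Red points are the 212 genes called higher and blue points the 20 called lower. The rises reach 6.17 for CXCL1 and the falls end at -1.21 for KAZALD1.

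The called rises were not limited to scarce transcripts. In the untreated cells 121 of the 212 averaged at least 10 TPM, 67 lay between 1 and 10 TPM, and 24 were under 1 TPM. Summed over the 212, the level was 7683, 6214 and 6784 TPM in the untreated libraries, and 16644, 15251 and 17769.5 TPM after CX3CL1. The sum is a description, since the genes were picked for their rise. The study itself names 38 genes for this treatment, of which 37 passed the filter, 29 were called higher and 0 lower. Those names came from the same libraries and are not independent evidence. The remaining 183 called rises lie outside that list, and most of what follows concerns them.

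The largest group among the rises outside the study's list was interferon-stimulated genes. Of a list of 50, all tested, 40 were called higher and 0 lower, against 1.78% and 0.168% of all genes tested. The median log2 fold change of the list was 1.71 against -0.02 over all genes. This list and those below were chosen with earlier results of these data known, so their counts are descriptions. The other 10 of the 50 were also above 0, from 0.04 for SLFN5 to 1.96 for GBP5, with adjusted p from 0.0629 to 1.00. For 47 of the 50 every CX3CL1 library lay above every untreated one, against 5.5% of all genes tested. The study's list holds OASL2 and PARP14 of the called members. Without CX3CL1 replicate 2 the count was 41, and without untreated replicate 2 it was 37. That untreated library was the lowest of its group for 49 of the 50 genes, and CX3CL1 replicate 3 the highest of its group for 43.

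The guanylate-binding proteins, GTPases that attack intracellular pathogens, led this group. GBP3 stood at 18.9, 7.65 and 11.7 TPM without treatment and 82.4, 78.6 and 116 TPM after CX3CL1, a log2 fold change of 2.83 ± 0.29 (adjusted p = 1.90e-04). GBP2 stood at 15.1, 5.49 and 9.39 TPM without treatment and 75.9, 56.5 and 85.9 TPM after CX3CL1, a change of 2.82 ± 0.36 (adjusted p = 0.00103). Every CX3CL1 library exceeded every untreated one by several fold in both genes. GBP2B rose from 8.59, 3.2 and 4.7 TPM to 48.5, 37.9 and 52.6 TPM, a change of 2.94 ± 0.40 (adjusted p = 0.00141), the largest rise outside the study's list. GBP2B at chr3:142594847-142619179 and GBP2 at chr3:142620602-142638008 (GENCODE positions on GRCm38) lie 1422 bases apart and are close paralogs, so reads shared between them could be split either way. GBP7 in the same run rose by 2.28 ± 0.38 (adjusted p = 0.00539). GBP5, another member, had 0.557, 0.265 and 0.437 TPM without treatment and 5.21, 2.57 and 6.55 TPM after CX3CL1, and missed the threshold at 1.96 ± 0.55 (adjusted p = 0.124) although its groups did not overlap.

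Antiviral effectors and their regulators rose together in the list. ISG15, a ubiquitin-like protein that is conjugated to other proteins, stood at 119, 96.7 and 114 TPM without treatment and 524, 320.5 and 684 TPM after CX3CL1, a change of 2.14 ± 0.25 (adjusted p = 5.81e-04). USP18, the protease that removes ISG15 and limits interferon receptor signaling, stood at 42.6, 21.9 and 34.9 TPM without treatment and 181, 124 and 239 TPM after CX3CL1, a change of 2.42 ± 0.29 (adjusted p = 5.81e-04). In both genes CX3CL1 replicate 2 was the lowest of its group and still well above the untreated libraries. IFIT1, which binds foreign RNA caps, stood at 22.3, 15.6 and 23.4 TPM without treatment and 96.1, 82.6 and 129.9 TPM after CX3CL1, a change of 2.27 ± 0.31 (adjusted p = 0.00138). IFIT3 rose by 2.61 ± 0.41 (adjusted p = 0.00356) and its near copy IFIT3B by 2.51 ± 0.30 (adjusted p = 5.81e-04), 2 genes between which reads may be shared. Further rises were CMPK2, a mitochondrial nucleotide kinase, by 2.6 ± 0.34 (adjusted p = 0.00114), ZBP1, a sensor of left-handed nucleic acid, by 2.5 ± 0.35 (adjusted p = 0.00174), and SLFN2 by 2.43 ± 0.32 (adjusted p = 0.00112). MX2, a dynamin-like antiviral GTPase, rose by 2.37 ± 0.33 (adjusted p = 0.00185). RSAD2 (viperin) rose by 2.41 ± 0.45 (adjusted p = 0.0118), and this call was lost without untreated replicate 2 or CX3CL1 replicate 3 (adjusted p up to 0.0712).

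The transcription factors of interferon signaling rose as well. STAT2 rose by 1.42 ± 0.22 (adjusted p = 0.00288), and IRF9, its DNA-binding partner, rose by 0.80 ± 0.11 (adjusted p = 0.00176). IRF7, the factor that amplifies interferon transcription, had 112, 21.6 and 43.7 TPM without treatment and 159.7, 104 and 158 TPM after CX3CL1. Its untreated replicate 1 exceeded CX3CL1 replicate 2, and it was not called at 1.52 ± 0.41 (adjusted p = 0.105). IRF1 was not called either, at 0.53 ± 0.28 (adjusted p = 0.778). The RNA sensors DDX58 (RIG-I), IFIH1 (MDA5) and DHX58 (LGP2) rose by 1.7 ± 0.16 (adjusted p = 1.28e-04), 1.83 ± 0.23 (adjusted p = 0.00103) and 1.83 ± 0.27 (adjusted p = 0.00248). The interferon-β gene IFNB1 itself had 0.106, 0.072 and 0 TPM without treatment and 0.199, 0 and 0.506 TPM after CX3CL1, with groups that overlapped, and was not called at 0.20 ± 0.17 (adjusted p = 1).

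Cell-autonomous defence genes of other families completed the group. The immunity-related GTPases IGTP and IRGM2 rose by 1.91 ± 0.33 (adjusted p = 0.00683) and 1.89 ± 0.28 (adjusted p = 0.00251). IFI44 stood at 120.0, 33.3 and 58.5 TPM without treatment and 240.3, 304 and 289 TPM after CX3CL1, a change of 2.14 ± 0.33 (adjusted p = 0.00301), with widely scattered untreated values. PHF11D stood at 22.7, 11.7 and 20.2 TPM without treatment and 66.8, 86.1 and 102 TPM after CX3CL1, a change of 2.19 ± 0.22 (adjusted p = 1.90e-04). PHF11D has close paralogs, so its reads could be shared. Among the ADP-ribosyltransferases, PARP12 rose by 1.8 ± 0.21 (adjusted p = 5.06e-04). The 2′-5′ oligoadenylate synthetases OAS1A, OAS2 and OAS3, which switch on RNA degradation, rose by 1.36 ± 0.22 (adjusted p = 0.00391), 1.32 ± 0.23 (adjusted p = 0.0072) and 1.63 ± 0.15 (adjusted p = 1.28e-04). Antigen presentation moved less: of 21 tested list members 2 were called higher and 0 lower, 20 were above 0, and the median was 0.53. The called members were TAPBP (tapasin, which loads peptide on class I molecules) at 1.41 ± 0.18 (adjusted p = 0.00106) and the class I gene H2-Q4 at 1.52 ± 0.22 (adjusted p = 0.00209). H2-K1 had 311, 212 and 231 TPM without treatment and 486, 299 and 446 TPM after CX3CL1 and missed the threshold at 0.69 ± 0.19 (adjusted p = 0.113). Without CX3CL1 replicate 2, 8 members of this list were called.

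The 5′ flanks of 5 of these genes are shown with the ISRE core, GAAA and GAAA with 2 free bases between them on either strand, in capitals. Overlapping or neighbouring matches run together, and the capital at the start of the IFIT3 stretch is the end of another match. The bases precede the RefSeq transcription start and are written in the gene's direction.
ISG15: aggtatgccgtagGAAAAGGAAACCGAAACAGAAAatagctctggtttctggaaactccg
IFIT1: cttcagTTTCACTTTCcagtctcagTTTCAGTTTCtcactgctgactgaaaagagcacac
IFIT3: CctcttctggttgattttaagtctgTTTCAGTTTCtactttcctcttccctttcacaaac
GBP3: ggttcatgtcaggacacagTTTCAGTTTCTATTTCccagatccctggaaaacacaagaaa
OAS1A: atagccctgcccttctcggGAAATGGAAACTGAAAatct
These stretches lie at chr4:156200850-156200909 (-), chr19:34640779-34640838 (+), chr19:34583382-34583441 (+), chr3:142559980-142560039 (+) and chr5:120907526-120907564 (-) of GRCm38.p6. The ISG15 stretch holds 3 overlapping matches, and the matches nearest the start lie 56, 75, 112, 29 and 4 bases from it, in the order shown. This motif was searched after the calls were seen, and 3.17% of the 11802 RefSeq windows of tested genes hold it. That share counts matches over the whole window, which also runs past the start, unlike the stretches shown. Only genes that hold the core are shown, and such a match does not measure binding. A window was found for 73.7% of the called genes, too few for a share over the called genes to be read, because many symbols have no entry in the table of windows.

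The genes of the NF-kB system were the second group. Of 15 NF-kB, IkB and IkB kinase genes, all tested, 9 were called higher and 0 lower, all 15 were above 0, and the median log2 fold change was 0.93. Without any 1 library the count was from 5 to 9. The largest of these rises were in NFKBIZ and NFKBIA, genes of IkB proteins. NFKBIZ (IkBζ, a nuclear cofactor) stood at 6.17, 5.68 and 7.18 TPM without treatment and 49.5, 44 and 43.3 TPM after CX3CL1, a change of 2.67 ± 0.24 (adjusted p = 1.28e-04). NFKBIA (IkBα) stood at 21.4, 17.2 and 11.9 TPM without treatment and 114, 55.6 and 86.6 TPM after CX3CL1, a change of 2.25 ± 0.30 (adjusted p = 0.00131). NFKBIE (IkBε), outside the study's list, stood at 6.23, 4.88 and 4.45 TPM without treatment and 21.7, 11.7 and 17 TPM after CX3CL1, a change of 1.5 ± 0.25 (adjusted p = 0.00616). NFKBIA and NFKBIE were lowest in CX3CL1 replicate 2, and no group overlapped with the other. The subunit gene RELB, also outside that list, stood at 11.9, 13.8 and 10.3 TPM without treatment and 52.2, 29.5 and 41.5 TPM after CX3CL1, a change of 1.67 ± 0.22 (adjusted p = 0.00112). NFKB1 rose by 0.93 ± 0.10 (adjusted p = 2.54e-04), while RELA, the subunit of the canonical dimer, was not called at 0.20 ± 0.13 (adjusted p = 0.903).

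Other members of that list rose with wider error. NFKBID rose by 1.09 ± 0.21 (adjusted p = 0.0154), and its call was lost without any library other than untreated replicate 3 and CX3CL1 replicate 2 (adjusted p up to 0.0838). The kinase gene IKBKE rose by 1.05 ± 0.23 (adjusted p = 0.0361), and its call was lost without any library other than CX3CL1 replicate 2 (adjusted p up to 0.184). BCL3 rose by 1.6 ± 0.31 (adjusted p = 0.0153), a call lost without any library other than untreated replicate 1 and CX3CL1 replicate 2 (adjusted p up to 0.0956). NFKB2 rose by 0.90 ± 0.20 (adjusted p = 0.0307), a call lost without any library other than CX3CL1 replicate 2 (adjusted p up to 0.167). Among 26 tested feedback and adaptor genes, 3 were called higher and 1 lower, with a median of 0.20. ZC3H12A (regnase-1), a ribonuclease that destroys cytokine transcripts, stood at 3.83, 3.71 and 3.29 TPM without treatment and 40.4, 22.3 and 32.2 TPM after CX3CL1, a change of 2.79 ± 0.27 (adjusted p = 1.38e-04). TRAF1, an adaptor of TNF receptors, rose by 1.68 ± 0.25 (adjusted p = 0.00274), and MAP3K8 (TPL2), a kinase upstream of ERK, by 1.27 ± 0.19 (adjusted p = 0.0026). TNFAIP3 (A20) and TNIP1, negative regulators of the pathway, were not called, at 0.57 ± 0.17 (adjusted p = 0.172) and 0.76 ± 0.22 (adjusted p = 0.145). The member that fell was MAP3K14 (NIK), the kinase of the non-canonical branch, described with the falls.

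The decamer bound by NF-kB, made of GGG, a purine, 2 free bases, 2 pyrimidines and CC, occurs before the start of several risers. It is shown in capitals on either strand for CXCL1, the IkB genes NFKBIA and NFKBIE, TNFRSF9 and TMEM176A. NFKBIE, TNFRSF9 and TMEM176A are outside the study's list. Only genes that hold the decamer are shown.
CXCL1: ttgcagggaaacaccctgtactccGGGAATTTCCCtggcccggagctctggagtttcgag
NFKBIA: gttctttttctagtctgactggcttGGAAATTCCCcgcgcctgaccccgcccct
NFKBIE: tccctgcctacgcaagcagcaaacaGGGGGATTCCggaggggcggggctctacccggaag
TNFRSF9: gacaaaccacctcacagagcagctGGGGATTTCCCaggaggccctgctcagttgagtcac
TMEM176A: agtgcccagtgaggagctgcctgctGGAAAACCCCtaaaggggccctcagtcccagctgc
They lie at chr5:90891150-90891209 (+), chr12:55492648-55492701 (-), chr17:45555569-45555628 (+), chr4:150927932-150927991 (+) and chr6:48841372-48841431 (+) of GRCm38.p6. CXCL1 and TNFRSF9 have 2 overlapping matches each. Of the windows of tested genes 10.4% hold the decamer, counted over the whole window. A match of letters is not a measurement of binding.

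Receptors at the cell surface also rose. Of 19 tested innate and TNF family receptor genes, 4 were called higher and 0 lower, and the median was 0.25. TNFRSF9 (4-1BB, a costimulatory receptor of T cells) stood at 19.8, 9.49 and 11.3 TPM without treatment and 79, 62 and 62.6 TPM after CX3CL1, a change of 2.3 ± 0.25 (adjusted p = 3.33e-04). FAS, a death receptor, stood at 0.772, 0.41 and 0.408 TPM without treatment and 9.71, 4.49 and 4.18 TPM after CX3CL1, a change of 2.15 ± 0.33 (adjusted p = 0.00288), with CX3CL1 replicate 1 well above the other CX3CL1 libraries. IL1RL1 (ST2, the IL-33 receptor) stood at 61, 33.4 and 42.1 TPM without treatment and 114, 121 and 105 TPM after CX3CL1, a change of 1.34 ± 0.20 (adjusted p = 0.00246). TLR3, a sensor of double-stranded RNA, rose by 1.57 ± 0.31 (adjusted p = 0.0167), a call lost without any library other than untreated replicate 1 (adjusted p up to 0.0881). The lipopolysaccharide receptor genes were present in the untreated cells, TLR4 at 15.8, 10.1 and 12.9 TPM, CD14 at 29.3, 27.7 and 23.7 TPM and LY96 at 28.8, 14.4 and 20.2 TPM. None of these 3 was called, with log2 fold changes of -0.03 ± 0.15, 0.39 ± 0.18 and 0.41 ± 0.21.

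Of 12 tested adhesion ligands 2 were called higher, with a median of 0.31. VCAM1, which binds the integrin VLA-4 of leukocytes, stood at 126, 109 and 104 TPM without treatment and 311, 253 and 249 TPM after CX3CL1, a change of 1.25 ± 0.21 (adjusted p = 0.00599). CD47, the signal that blocks phagocytosis, stood at 119, 108 and 82.7 TPM without treatment and 185, 218 and 170.3 TPM after CX3CL1, a change of 0.89 ± 0.14 (adjusted p = 0.00291). CD274 (PD-L1) had 3.86, 1.99 and 3.38 TPM without treatment and 6.12, 5.79 and 8.13 TPM after CX3CL1, groups that did not overlap, and no call at 0.93 ± 0.43 (adjusted p = 0.622). ICAM1 stayed under 1 TPM, at 0.155, 0.0452 and 0.0673 TPM without treatment and 0.809, 0.284 and 0.438 TPM after CX3CL1, and was not called at 0.46 ± 0.15 (adjusted p = 0.261). In the list of the fractalkine axis and integrins, 1 of 7 tested genes was called, the scavenging chemokine receptor ACKR3 at 0.78 ± 0.14 (adjusted p = 0.0093), a call lost without untreated replicate 2 or untreated replicate 3 (adjusted p up to 0.0619). The integrin subunit gene ITGB1 was abundant, at 498, 437 and 434 TPM without treatment and 439, 616 and 409 TPM after CX3CL1, and was not called at 0.08 ± 0.14 (adjusted p = 1). The mannose receptor MRC1, the 1 leukocyte marker called, had 0.736, 0.753 and 0.574 TPM without treatment and 1.98, 4.59 and 2.85 TPM after CX3CL1, a change of 1.25 ± 0.27 (adjusted p = 0.033) that was lost without any library other than CX3CL1 replicate 1 (adjusted p up to 0.16).

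Chemokine genes held the largest rises of the comparison. Of 19 tested CC and CXC chemokines 9 were called higher and 0 lower, with a median of 1.56, and 13 had groups that did not overlap. All 9 are named by the study, so they are given briefly. CXCL1, a neutrophil attractant, stood at 6.7, 4.03 and 4.15 TPM without treatment and 620.3, 305 and 393 TPM after CX3CL1, a change of 6.17 ± 0.38 (adjusted p = 6.87e-06). CXCL5 at 4.3 ± 0.35, CCL2 at 3.65 ± 0.54 and CXCL10 at 3.1 ± 0.62 followed, and the CXCL10 call was lost without any library other than CX3CL1 replicate 2 (adjusted p up to 0.0958). The CCL7 call was lost without untreated replicate 2, untreated replicate 3 or CX3CL1 replicate 1 (adjusted p up to 0.0605). CXCL9, a chemokine typical of the IFN-γ response, was not called and had 0.0194, 0 and 0 TPM without treatment and 0.0544, 0.0225 and 0 TPM after CX3CL1. Of 15 tested IL-6 family, colony-stimulating factor and receptor genes, 4 were called higher (IL6, LIF, CSF1 and the IL-13 decoy receptor IL13RA2), with a median of 0.30. The LIF and CSF1 calls were both lost without any library other than untreated replicate 1 and CX3CL1 replicate 2 (adjusted p up to 0.0678 and 0.0743), and the count was from 2 to 4 without any 1 library. Other cytokines gave 0 calls among 8 tested genes, with 1 higher at an unadjusted p under 0.05. TNF was listed at 0, 0 and 0 TPM without treatment and 0.0349, 0 and 0.0254 TPM after CX3CL1, below the filter.

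Of 11 tested acute phase and complement genes 2 were called higher, both outside the study's list, and the median was 0.73. SAA3, a secreted acute phase protein, stood at 6.76, 1.15 and 4.98 TPM without treatment and 60.3, 16.9 and 32.8 TPM after CX3CL1, a change of 2.85 ± 0.59 (adjusted p = 0.023). C3, the central complement component, stood at 2.44, 0.468 and 0.658 TPM without treatment and 18.6, 8.29 and 10.6 TPM after CX3CL1, a change of 2.66 ± 0.53 (adjusted p = 0.0181). In both genes CX3CL1 replicate 2 was the lowest of its group and untreated replicate 1 the highest of its group. The SAA3 call was lost without any library other than untreated replicate 1 and CX3CL1 replicate 2 (adjusted p up to 0.115), and the C3 call without any library other than untreated replicate 1 and CX3CL1 replicate 2 (adjusted p up to 0.105). LCN2 (lipocalin-2), which sequesters bacterial iron carriers, had 44.9, 3.62 and 19.3 TPM without treatment and 215, 54.7 and 152 TPM after CX3CL1 and the largest uncalled change of the list, 2.91 ± 1.02 (adjusted p = 0.306).

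Genes of programmed cell death and of iron and amino acid transport gave calls within lists whose medians were near 0. Of 29 tested apoptosis genes 4 were called higher and 0 lower, and the median was 0.15. They were the inflammatory caspase CASP4 at 2.1 ± 0.30 (adjusted p = 0.00219), the pro-apoptotic BCL2L11 (BIM) at 1.05 ± 0.16 (adjusted p = 0.00282), CASP1 at 0.93 ± 0.19 (adjusted p = 0.0196) and GSDMD (gasdermin D, the pore protein cut by those caspases) at 0.69 ± 0.11 (adjusted p = 0.00539). The CASP1 call was lost without any library other than untreated replicate 1 and CX3CL1 replicate 2 (adjusted p up to 0.105). GSDMD was among the tightest, at 40, 39.5 and 39.3 TPM without treatment and 67.5, 57.2 and 69.2 TPM after CX3CL1. Of 21 tested redox and iron genes 2 were called, SLC11A2 (DMT1, the iron importer) at 1.27 ± 0.18 (adjusted p = 0.00185) and the cystine transporter SLC7A11 at 1.15 ± 0.26 (adjusted p = 0.0395), the latter lost without any library other than untreated replicate 2 and CX3CL1 replicate 1 (adjusted p up to 0.218). The prostaglandin synthase PTGS2 (COX-2) stood at 169, 109.7 and 126 TPM without treatment and 318, 365 and 286 TPM after CX3CL1, a change of 1.27 ± 0.15 (adjusted p = 5.81e-04). GCH1, which makes the cofactor of nitric oxide synthase, rose by 0.96 ± 0.17 (adjusted p = 0.00683). These 2 were the calls among 12 tested nitric oxide and prostanoid genes, with a median of 0.18. PTGS2OS2, a noncoding RNA annotated on the opposite strand downstream of PTGS2, rose by 0.78 ± 0.16 (adjusted p = 0.0196), and whether strand was used in counting is not given in the sources used here. That call was lost without untreated replicate 2 or untreated replicate 3 (adjusted p up to 0.125).

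Transcription factor lists moved little. Of 27 tested immediate early and AP-1 genes 3 were called higher, with a median of 0.18. They were IER3 at 1.31 ± 0.25 (adjusted p = 0.0123), IER5 at 0.68 ± 0.15 (adjusted p = 0.0406) and the RNA-binding protein ZFP36L1 at 0.65 ± 0.14 (adjusted p = 0.0357). Their calls were lost without any library other than untreated replicate 1 and CX3CL1 replicate 2 (adjusted p up to 0.0822) for IER3, without any library other than CX3CL1 replicate 2 (adjusted p up to 0.202) for IER5 and without any library other than untreated replicate 1 and CX3CL1 replicate 3 (adjusted p up to 0.211) for ZFP36L1. JUN and FOS, the AP-1 subunits, had log2 fold changes of 0.19 ± 0.17 and -0.04 ± 0.12 and were not called. Of 22 tested C/EBP and dual-specificity phosphatase genes, 1 was called, CEBPD at 2.6 ± 0.44 (adjusted p = 0.00636). Of 20 tested matrix protease and inhibitor genes 5 were called higher, and from 3 to 5 without any 1 library. The MMP3 call was lost without any library other than untreated replicate 1 and CX3CL1 replicate 2 (adjusted p up to 0.083). The fifth beside the 4 metalloproteinases that the study names was PLAUR, the urokinase receptor, at 154, 139 and 157 TPM without treatment and 226, 180.2 and 255 TPM after CX3CL1, a change of 0.54 ± 0.12 (adjusted p = 0.0307) that was lost without any library other than CX3CL1 replicate 2 (adjusted p up to 0.164).

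An AP-1 heptamer, TGA and TCA with 1 free base between them, lies before the start of PLAUR and of 2 further risers outside the study's list, UPP1, a uridine phosphorylase, and GLRX, a thiol reductase, and is shown in capitals.
UPP1: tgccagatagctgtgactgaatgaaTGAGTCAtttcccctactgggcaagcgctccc
PLAUR: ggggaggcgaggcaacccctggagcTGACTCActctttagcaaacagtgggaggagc
GLRX: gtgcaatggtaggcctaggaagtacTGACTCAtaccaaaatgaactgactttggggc
They lie at chr11:9117938-9117994 (+), chr7:24462389-24462445 (+) and chr13:75839762-75839818 (+) of GRCm38.p6. Of the windows of tested genes 5.24% hold the heptamer, counted over the whole window. Only genes that hold the heptamer are shown, and such a match does not measure binding.

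Of the 212 rises, 116 belong to none of the lists used here, the study's list included. The following were chosen among them after their values were seen. COL8A1, a short-chain collagen, stood at 64.9, 59.7 and 56.1 TPM without treatment and 137, 167 and 125 TPM after CX3CL1, a change of 1.23 ± 0.11 (adjusted p = 1.28e-04). ODC1, the first enzyme of polyamine synthesis and the most abundant of these, stood at 784, 873 and 893 TPM without treatment and 1269, 1456 and 1281 TPM after CX3CL1, a change of 0.65 ± 0.10 (adjusted p = 0.00379). TMEM176A and TMEM176B, membrane proteins whose genes overlap head to head on chromosome 6, rose by 1.19 ± 0.12 (adjusted p = 1.90e-04) and 1.36 ± 0.13 (adjusted p = 1.28e-04). LANCL3 stood at 2.85, 2.09 and 2.33 TPM without treatment and 7.54, 9.68 and 8.16 TPM after CX3CL1, a change of 1.47 ± 0.13 (adjusted p = 1.28e-04). UPP1 rose by 1.5 ± 0.17 (adjusted p = 4.56e-04), the glycerophosphodiesterase GDPD5 by 1.59 ± 0.16 (adjusted p = 1.62e-04), and PTPN22, a phosphatase of immune receptors, by 1.84 ± 0.25 (adjusted p = 0.00159). FNDC7 rose from 0.21, 0.178 and 0.135 TPM to 0.884, 0.89 and 0.921 TPM, a change of 0.69 ± 0.09 (adjusted p = 0.0011). None of these 9 genes lost its call when any 1 of the 6 libraries was left out. GLRX rose by 1.06 ± 0.22 (adjusted p = 0.0196), a call lost without any library other than untreated replicate 1 and CX3CL1 replicate 2 (adjusted p up to 0.127).

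The genes that rose often lay beside each other. Of the 211 called risers with 1 position in GENCODE, 69 (32.7%) had another called riser within 100 kilobases, while 563 of the 11721 tested genes with a position (4.8%) had a called riser that near. Some neighbours belong to 1 family. The chemokines CXCL5, PPBP and CXCL3 share a run on chromosome 5 that starts at 90759360, CCL2 and CCL7 lie 8258 bases apart on chromosome 11, and GBP7, GBP3, GBP2B and GBP2 share a run on chromosome 3. Paralogs in such runs can share reads.

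**Figure D2:**
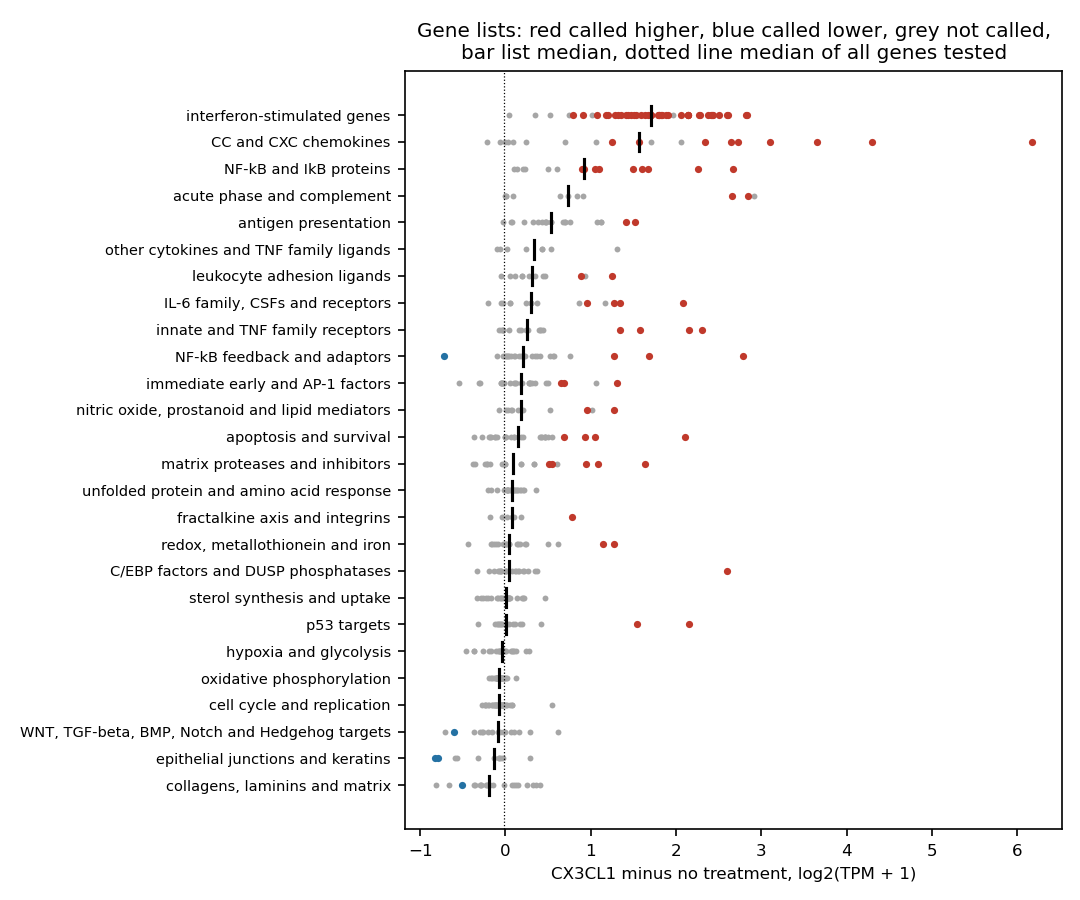
Each row is a gene list with at least 7 tested members, and each point a member's log2 fold change (CX3CL1 minus no treatment). Red points were called higher, blue points lower and grey points not called; the bar is the list median and the dotted line the median of all genes tested. The interferon-stimulated list has a median of 1.71, and collagens have the lowest at -0.19.

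The 20 genes called lower included 2 neighbouring claudins, tight junction proteins that seal the space between epithelial cells. CLDN6, an embryonic claudin, stood at 230.3, 245 and 275 TPM without treatment and 147, 141 and 145 TPM after CX3CL1, a change of -0.79 ± 0.11 (adjusted p = 0.00185). CLDN9 stood at 1.45, 2.18 and 2.14 TPM without treatment and 0.66, 0.359 and 0.96 TPM after CX3CL1, a change of -0.82 ± 0.17 (adjusted p = 0.0194). The CX3CL1 values of CLDN6 were close together and lay far below the lowest untreated library, and those of CLDN9 were near the floor. The genes lie at chr17:23679249-23682446 and chr17:23682584-23684026, 137 bases apart and facing each other, so reads past the end of the one could be counted for the other. CLDN6 kept its call in every setting tried apart from the fold minimum of 1, and CLDN9 lost it without any library other than untreated replicate 1 and CX3CL1 replicate 3 (adjusted p up to 0.116). Of 11 tested junction and keratin genes 2 were called lower and 0 higher, 1 was above 0, and the median was -0.13. The keratins KRT18 and KRT20 were lower without a call, at -0.59 ± 0.18 (adjusted p = 0.172) and -0.57 ± 0.22 (adjusted p = 0.427).

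The largest falls were of less well known genes. KAZALD1, a secreted protein with an insulin-like growth factor binding domain, stood at 12.4, 14.5 and 10.4 TPM without treatment and 5.43, 5.44 and 3.64 TPM after CX3CL1, a change of -1.21 ± 0.24 (adjusted p = 0.0154). ANXA8, an annexin that binds membrane lipids with calcium, stood at 41, 38.3 and 40.9 TPM without treatment and 16.4, 19.5 and 17.4 TPM after CX3CL1, a change of -1.13 ± 0.20 (adjusted p = 0.00723). The CX3CL1 libraries of both genes lay far below the untreated ones, and the groups were well apart. GLOD5 had 1.46, 1.36 and 2.22 TPM without treatment and 0.625, 0 and 0.455 TPM after CX3CL1, a change of -1.0 ± 0.19 (adjusted p = 0.0123), and KLHDC8A, a kelch domain protein, had 9.24, 10.6 and 8.86 TPM without treatment and 5.0, 4.75 and 5.38 TPM after CX3CL1, a change of -0.80 ± 0.15 (adjusted p = 0.0122). ANXA8 kept its call without any 1 library. KAZALD1 lost it without untreated replicate 2 or CX3CL1 replicate 3 (adjusted p up to 0.0881), GLOD5 without untreated replicate 3 (adjusted p up to 0.0766) and KLHDC8A without untreated replicate 2 (adjusted p up to 0.0743).

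Signaling genes made up the next set of falls. TGFB3, a ligand of the TGF-β family, stood at 18.4, 12 and 15 TPM without treatment and 9.43, 7.94 and 8.2 TPM after CX3CL1, a change of -0.74 ± 0.14 (adjusted p = 0.0106). MAP3K14 (NIK) stood at 5.66, 8.01 and 6.83 TPM without treatment and 3.67, 3.41 and 4.17 TPM after CX3CL1, a change of -0.71 ± 0.13 (adjusted p = 0.00746), in the opposite direction to RELB and NFKB2, the subunits of the non-canonical pathway. GLI1, a transcription factor and target of Hedgehog signaling, stood at 2.13, 3.08 and 2.28 TPM without treatment and 1.08, 1.47 and 1.34 TPM after CX3CL1, a change of -0.60 ± 0.13 (adjusted p = 0.0349). C1QTNF1, a secreted C1q and TNF related protein, had 1.02, 0.757 and 0.673 TPM without treatment and 0.404, 0.153 and 0.228 TPM after CX3CL1, a change of -0.53 ± 0.11 (adjusted p = 0.0234). The groups did not overlap in any of them. The MAP3K14 call held without any 1 library. TGFB3 lost its call without untreated replicate 3 or CX3CL1 replicate 3 (adjusted p up to 0.0556), GLI1 without any library other than untreated replicate 1 and CX3CL1 replicate 2 (adjusted p up to 0.187) and C1QTNF1 without any library other than untreated replicate 3 and CX3CL1 replicate 1 (adjusted p up to 0.0989). Of 17 tested WNT, TGF-β, BMP, Notch and Hedgehog targets, GLI1 was the 1 called, 5 were above 0, and the median was -0.09.

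A collagen gene and a cytoskeleton gene were also among the falls. COL1A2, a chain of type I collagen, stood at 869, 764 and 694 TPM without treatment and 619, 539 and 484 TPM after CX3CL1, a change of -0.50 ± 0.11 (adjusted p = 0.0408), lost without any library other than untreated replicate 3 and CX3CL1 replicate 1 (adjusted p up to 0.197). Of 22 tested collagen, laminin and matrix genes COL1A2 was the 1 called, 8 were above 0, and the median was -0.19. The partner chain COL1A1 had 80.1, 84.7 and 57.8 TPM without treatment and 55.7, 40.7 and 42.2 TPM after CX3CL1 and COL3A1 had 11.1, 9.82 and 9.76 TPM without treatment and 4.89, 6.36 and 5.02 TPM after CX3CL1. Neither was called, at -0.67 ± 0.21 (adjusted p = 0.208) and -0.81 ± 0.22 (adjusted p = 0.112), although the groups of both were apart. SORBS3 (vinexin), an adaptor of focal adhesions, stood at 26, 27.7 and 33 TPM without treatment and 15.7, 19.7 and 17.6 TPM after CX3CL1, a change of -0.68 ± 0.14 (adjusted p = 0.0203), lost without any library other than untreated replicate 1 and CX3CL1 replicate 2 (adjusted p up to 0.136). COL8A1, above, moved in the other direction.

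The remaining falls were in enzymes, chromatin genes and pseudogenes. AK5, an adenylate kinase, stood at 32.5, 24.9 and 29.6 TPM without treatment and 20.8, 19.7 and 16.5 TPM after CX3CL1, a change of -0.58 ± 0.13 (adjusted p = 0.0307), lost without untreated replicate 1, untreated replicate 3 or CX3CL1 replicate 3 (adjusted p up to 0.15). AKR1C14, a hydroxysteroid reductase, had 1.39, 0.991 and 0.768 TPM without treatment and 0.33, 0.438 and 0.272 TPM after CX3CL1, a change of -0.60 ± 0.13 (adjusted p = 0.0259), lost without any library other than untreated replicate 3 and CX3CL1 replicate 2 (adjusted p up to 0.122). SSBP3, a cofactor of LIM domain transcription factors, stood at 37.5, 33 and 34.7 TPM without treatment and 24.2, 24.8 and 20.9 TPM after CX3CL1, a change of -0.57 ± 0.13 (adjusted p = 0.0334), lost without any library other than CX3CL1 replicate 2 (adjusted p up to 0.159). The histone gene HIST2H2BE had 3.52, 3.3 and 3.53 TPM without treatment and 1.72, 2.43 and 1.82 TPM after CX3CL1, a change of -0.58 ± 0.11 (adjusted p = 0.013), lost without untreated replicate 3, CX3CL1 replicate 1 or CX3CL1 replicate 3 (adjusted p up to 0.0718). MRPS6, a protein of the mitochondrial ribosome, stood at 149.8, 152 and 184 TPM without treatment and 114, 114 and 119 TPM after CX3CL1, a change of -0.47 ± 0.10 (adjusted p = 0.0338), lost without any library other than untreated replicate 1 (adjusted p up to 0.201). Each of these falls was smaller than those of the claudins.

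Of the last 3, GM12504 and PPP1R2-PS3 are annotated as processed pseudogenes and ALDOART1 is a retrotransposed copy of an aldolase gene, so their reads may come from the parent genes. GM12504 had 5.67, 4.84 and 5.16 TPM without treatment and 2.59, 3.07 and 3.5 TPM after CX3CL1, a change of -0.62 ± 0.13 (adjusted p = 0.0194), lost without any library other than CX3CL1 replicate 2 and CX3CL1 replicate 3 (adjusted p up to 0.101). ALDOART1 had 3.02, 2.23 and 2.23 TPM without treatment and 1.27, 1.17 and 1.49 TPM after CX3CL1, a change of -0.59 ± 0.13 (adjusted p = 0.0338), lost without any 1 of the 6 libraries (adjusted p up to 0.128). PPP1R2-PS3 had 0.79, 0.672 and 0.675 TPM without treatment and 0.278, 0.231 and 0.27 TPM after CX3CL1, a change of -0.44 ± 0.09 (adjusted p = 0.0211), lost without any 1 of the 6 libraries (adjusted p up to 0.0819).

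Of the 20 falls, ANXA8, CLDN6 and MAP3K14 kept their calls when any 1 of the 6 libraries was left out, and ANXA8 and CLDN6 also kept them in the 8 other fits with another pseudocount, filter, scaling, trend, sample set or block. The 20 together summed to 1452, 1350.4 and 1352 TPM without treatment and 989, 909 and 853 TPM after CX3CL1, given as a description. Of the 20 no gene is in the study's list and 15 are in none of the lists used here. By contrast 134 of the 212 rises kept their calls in all 6 fits with 1 library left out. No called gene changed sign in any of those fits.

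**Figure D3:**
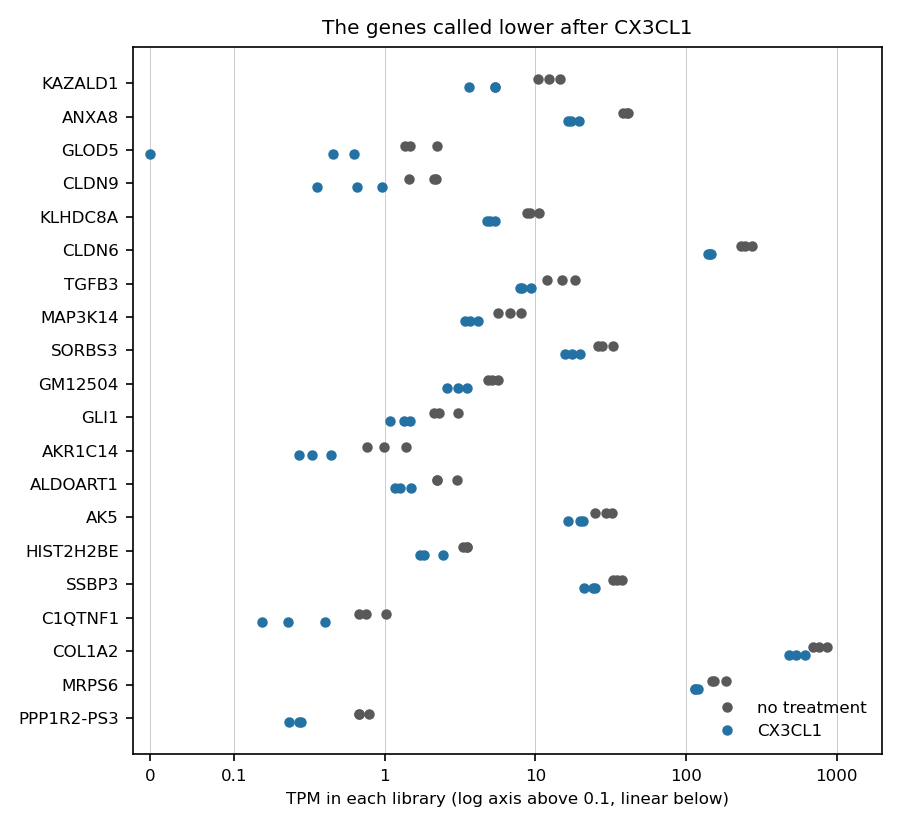
TPM of the 20 genes called lower, in order of log2 fold change from the top, with 1 point per library (log axis above 0.1 TPM, linear below). Grey points are the 3 untreated libraries and blue points the 3 CX3CL1 libraries. The blue points lie left of the grey points in every row.

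Several programs gave no call. With 1.78% and 0.168% of all genes called higher and lower, 0 calls in lists of this size is no result about them. Of 35 tested cell cycle and replication genes 0 were called and 6 were above 0, with a median of -0.07. Over all genes 5317 of 11878 were above 0. Of 31 tested oxidative phosphorylation genes 0 were called and 3 were above 0, with a median of -0.07, and the member farthest from 0 was at -0.19. Sterol synthesis (26 tested), hypoxia and glycolysis (26 tested) and the unfolded protein and amino acid response (24 tested) also gave 0 calls, with medians of 0.01, -0.04 and 0.08. At an unadjusted p under 0.05 in limma, the cell cycle list had 1 higher and 0 lower, oxidative phosphorylation 0 higher and 0 lower, sterol synthesis 1 higher and 2 lower, hypoxia and glycolysis 0 higher and 1 lower, and the unfolded protein response 0 higher and 0 lower. Of 20 tested p53 targets 2 were called, FAS and the polo-like kinase PLK2 at 1.54 ± 0.17 (adjusted p = 3.33e-04), and the median was 0.01. The cyclin-dependent kinase inhibitor CDKN1A, the standard p53 target, was not called at 0.02 ± 0.25 (adjusted p = 1). Endothelial and fibroblast markers had 3 tested genes and carcinoma markers 6, with 0 calls in each, and medians of -0.04 and -0.30.

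The change was measured a second time in the other 6 libraries, as CX3CL1 with IFN-γ against IFN-γ alone (3 against 3). The 2 sets have no library in common but carry the same replicate numbers, and CX3CL1 and CX3CL1+IFN-γ libraries of 1 number deviated together from their group means (correlations across genes of 0.351, 0.353 and 0.428). There 41 genes were called higher (0.345% of those tested) and 2 lower (0.0168%), or 89 and 6 with the replicate number as a block, since same-numbered libraries of these groups deviated together. Of the 212 rises without IFN-γ, 202 were also above 0 with it, against 49.2% of all genes tested. Their median log2 fold change there was 0.39, against -0.00 over all genes. Called in both were 32 genes, which is 15.1% of the 212 and 78.0% of the 41. Of the 20 falls, 18 were below 0 with IFN-γ, against 50.8% of all genes, and 11 were lower at an unadjusted p under 0.05, against 1.71% of all genes. Their median there was -0.36. Both comparisons came from 1 fit with 1 spread per gene, so genes called in the first tend to have a small spread in both. The counts that rest on p-values, the 32 and the 11, are therefore not an independent check. CLDN6 was the 1 of them called, at 65.8, 71.6 and 67.3 TPM with IFN-γ and 26.5, 36.1 and 29.8 TPM with both, a change of -1.13 ± 0.11 (adjusted p = 3.31e-04). The count of 41 was 52 without CX3CL1+IFN-γ replicate 2, and from 15 to 25 without any other 1 of these 6 libraries.

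The 32 genes called both times held no member of the interferon-stimulated list, which was chosen and does not hold every gene that interferons raise. They were chemokines (CXCL1, CXCL3, CXCL5, CCL20, PPBP), the metalloproteinases MMP3, MMP10 and MMP13, IL6 and IL13RA2, the NF-kB genes NFKB1, NFKBIZ and ZC3H12A, and PTGS2, BCL2L11 and PLK2. Outside these lists they were COL8A1, ODC1, PLSCR1, LANCL3, FNDC7, LRIG1, TGFBR3, ELL2, GLRX, DHRS1, SLPI, SLC11A1, FGFR1OP, NOL4, U90926 and the study's PRL2C2. Without IFN-γ the NOL4 call was lost without any library other than untreated replicate 1 and CX3CL1 replicate 3 (adjusted p up to 0.193), the ELL2 call without untreated replicate 2 or untreated replicate 3 (adjusted p up to 0.0653) and the DHRS1 call without untreated replicate 3 (adjusted p up to 0.0508). PTGS2 stood at 199, 192 and 197 TPM with IFN-γ and 468, 362 and 393 TPM with both, a change of 1.04 ± 0.15 (adjusted p = 0.00904). COL8A1 stood at 74.2, 80.5 and 88.6 TPM and 133, 143 and 142 TPM, a change of 0.78 ± 0.11 (adjusted p = 0.00923), and NFKB1 at 83.1, 84.6 and 83.2 TPM and 145, 142 and 159 TPM, a change of 0.82 ± 0.10 (adjusted p = 0.00151). In these genes the libraries with both lay above all libraries with IFN-γ alone. U90926 changed by 1.67 ± 0.27 (adjusted p = 0.021).

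The interferon-stimulated genes of the list had smaller log2 fold changes on top of IFN-γ. Of the 50 in the list 0 were called by limma, with 2 higher and 0 lower at an unadjusted p under 0.05, and the median log2 fold change was 0.21, against 1.71 without IFN-γ. ISG15 had 751, 813 and 1017 TPM with IFN-γ and 624, 915 and 1095 TPM with both, a change of 0.00 ± 0.25 (adjusted p = 0.999). GBP3 had 472, 423 and 727 TPM and 601, 571 and 869 TPM, a change of 0.34 ± 0.29 (adjusted p = 0.975). The groups overlapped in both genes. NF-kB genes were split: NFKBIE and RELB, called without IFN-γ, were at -0.26 ± 0.25 (adjusted p = 0.975) and 0.07 ± 0.22 (adjusted p = 0.99) with it, and BCL3 was at 1.46 ± 0.31 (adjusted p = 0.101). The difference between the 2 CX3CL1 changes was tested for every gene as an interaction, and 0 of the 11878 passed an adjusted p of 0.05, with 273 at an unadjusted p under 0.05. The interaction was below 0 for 49 of the 50 interferon-stimulated genes, against 5525 of the 11878 genes tested. It subtracts the change without IFN-γ, which is large in this list, and the list was chosen with earlier results known. That count is therefore a description and no further evidence of a difference. A fit blocked on replicate number passed 52 genes, of which 49 were below 0 and 24 are in the interferon-stimulated list. Same-numbered libraries correlated over 0.1 in every pair of IFN-γ with each other group, but in 2 of the 3 pairs both for CX3CL1 and for CX3CL1+IFN-γ with no treatment. Whether genes are called different between the settings rests on the block.

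**Figure D4:**
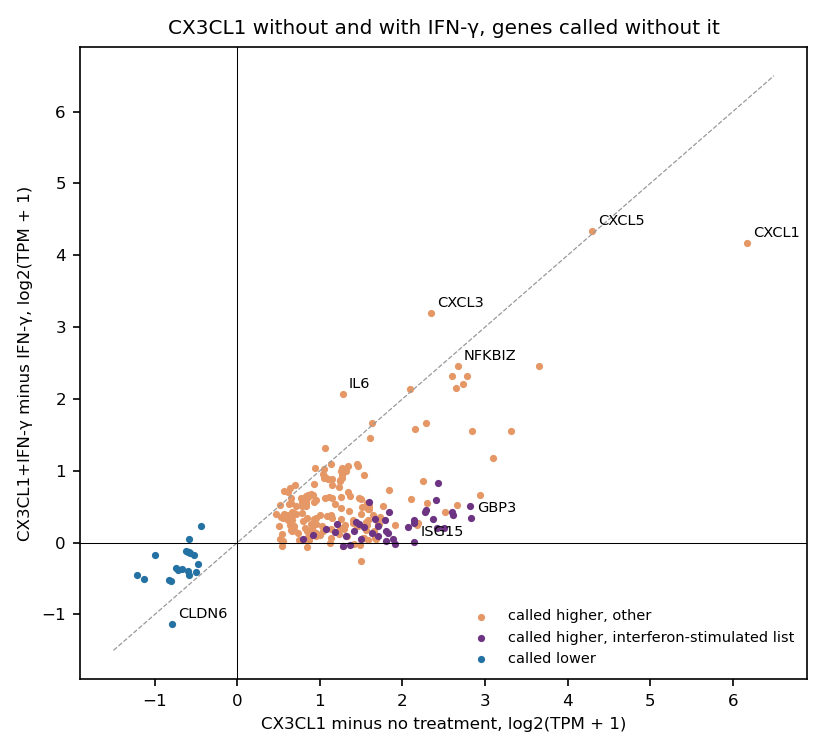
Each point is 1 of the 232 genes called without IFN-γ, with its log2 fold change for CX3CL1 against no treatment (horizontal) and for CX3CL1+IFN-γ against IFN-γ (vertical); the dashed line marks equal changes. Purple points, the 40 called interferon-stimulated genes, have a median of 1.80 on the horizontal axis and 0.21 on the vertical axis.

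Levels after IFN-γ alone are set beside those after CX3CL1 alone without a test, since both changes use the same untreated libraries. The median log2 fold change of the 50 interferon-stimulated genes was 2.64 with IFN-γ and 1.71 with CX3CL1. For 47 of the 50 every CX3CL1 library was below every IFN-γ library, and the CX3CL1 mean was 46.8% of the IFN-γ mean at the median, from 7.82% to 79.6%. TAPBP had 200.4, 166 and 234 TPM with CX3CL1 and 760.0, 673 and 872 TPM with IFN-γ. The chemokine CXCL1 was on the other side, with 620.3, 305 and 393 TPM after CX3CL1 and 71.7, 39 and 54.5 TPM after IFN-γ. NFKBIZ had 49.5, 44 and 43.3 TPM and 17.3, 8.45 and 10.4 TPM, and ODC1 1269, 1456 and 1281 TPM and 869.9, 935 and 856 TPM. Among the falls, CLDN6 was at 147, 141 and 145 TPM after CX3CL1 and 65.8, 71.6 and 67.3 TPM after IFN-γ, whereas MAP3K14 was at 3.67, 3.41 and 4.17 TPM and 6.96, 7.86 and 7.93 TPM.

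**Figure D5:**
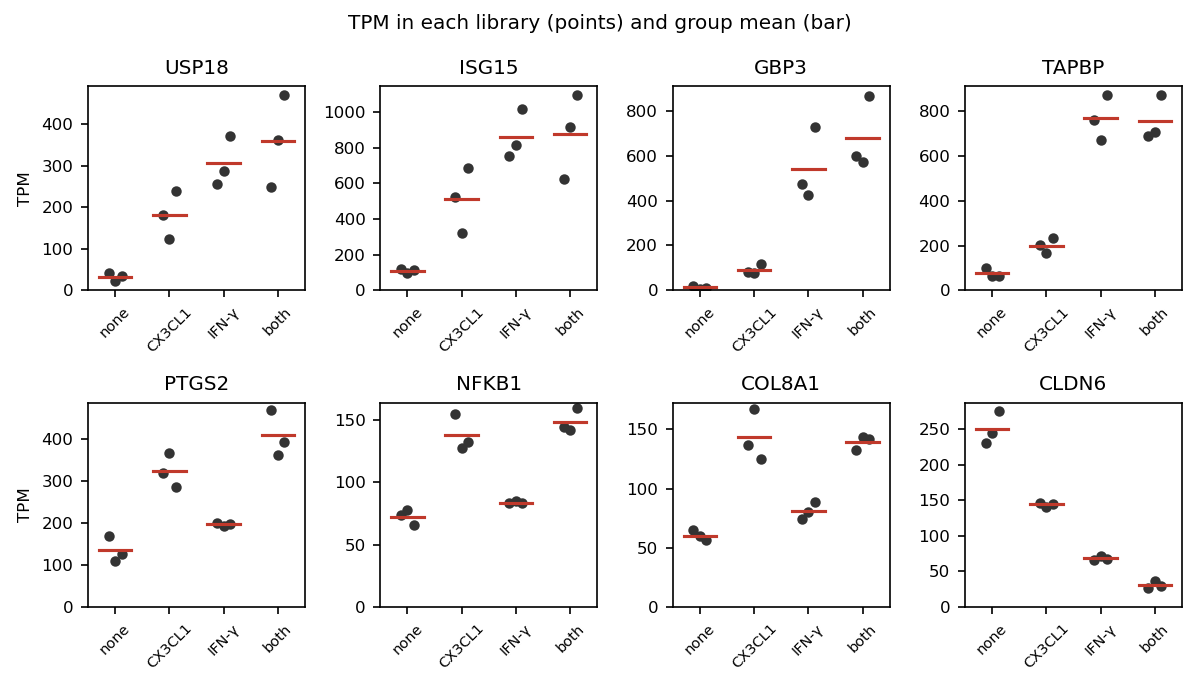
TPM (linear axes from 0) of 8 genes in the 12 libraries, with 1 point per library and a bar at the group mean of 3. USP18, ISG15, GBP3 and TAPBP have their highest group means in the groups with IFN-γ, NFKB1, PTGS2 and COL8A1 stand higher with CX3CL1 in both settings, and CLDN6 falls with each treatment and is lowest with both.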

How the data were processed

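RNA of CT26 cells was sequenced in 4 groups of 3 libraries (no treatment, CX3CL1, IFN-γ, and CX3CL1+IFN-γ). The authors used a strand-specific mRNA kit, aligned reads to mm10 with STAR 2.7.3a in the VIPER pipeline, counted them per gene and tested counts with DESeq2 1.22.1. The deposited values are TPM, scaled by the authors to 1000000 per library. The gene annotation, the use of strand in counting and the handling of shared reads are not given in the sources used here, and counts were not used here. The table has 26 symbols turned into dates and 2 repeated names.

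From the TPM, log2(TPM + 1) was fitted with limma 3.58.1 in R 4.3.3 (lmFit, eBayes with trend) over the genes averaging 0.2 TPM or more, without a block, with Benjamini-Hochberg adjustment and calls at 0.05. Simulated data with known changes were used to check the fit. Tables were made with pandas 2.3.3, and positions came from GENCODE vM21. Members and lists were chosen with earlier results of these data known. Genes named are all those called lower, the 15 largest called rises outside the study's list, the 10 largest of these from at least 10 TPM, called list members, both genes of the fractalkine pair, and others said to be chosen after their values were seen. Alternatives were another pseudocount (0.1), filter, scaling, trend, sample set, a replicate block, a fold minimum, and leaving out 1 library. Same-numbered libraries of CX3CL1+IFN-γ and IFN-γ deviated together from their group means (correlations across genes of 0.630, 0.635 and 0.649), which is where that pairing comes from, since the labels do not say what a number shares.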

Additional observations from a re-analysis of the deposited data

Results flagged for a closer look

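PPP1R2-PS3, a processed pseudogene, moved in opposite directions under CX3CL1 in the 2 settings, with every library of each treated group on 1 side of its controls. It was lower after CX3CL1 alone, by -0.44 (adjusted p = 0.0211), and higher after CX3CL1 on top of IFN-γ, by 0.23 (adjusted p = 0.93), on the log2(TPM + 1) scale. With IFN-γ it stood at 0.152, 0.22 and 0.289 TPM, and with both at 0.454, 0.348 and 0.506 TPM. The difference between the changes had an adjusted p of 0.139 in limma and did not pass the threshold, and all 12 values were under 1 TPM.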

How the results depend on the processing

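The counts of genes called moved with these choices, and the cause was not tested. For CX3CL1 against no treatment (212 higher and 20 lower), a log2 fold change of at least 1 left 141 and 2, only the libraries compared left 12 lower, and leaving out 1 library gave 144 to 230 higher and 8 to 38 lower. With the replicate block the counts were 347 and 108, holding all 212 and all 20. The correlations of same-numbered deviations between these groups were 0.387, 0.00472 and 0.301. The main fit had no block, which was run as an alternative. Of these correlations 1 was not over 0.1. Those of each group with IFN-γ were all over 0.1 (0.584, 0.361 and 0.226 for CX3CL1, and 0.429, 0.46 and 0.22 for no treatment). Both groups were thus tied by number to the same IFN-γ libraries. The main fit and the fits without 1 library ignore that tie. Their counts, and the calls said to be missed or lost, hold for that choice only. For CX3CL1+IFN-γ against IFN-γ (41 and 2), the higher count was 25 with no filter, 19 with only the libraries compared, 23 with a fold minimum, 89 with the replicate block and 15 to 52 without 1 library. The lower count was 1 with quantile normalization, with median-ratio scaling, with a filter at 1 TPM, with only the libraries compared and with a fold minimum, 6 with the block and 1 to 2 without 1 library. The interaction gave 1 gene with quantile normalization and 52 with the replicate block, of which 49 were below 0 and 24 are in the interferon-stimulated list.

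Of 2629 recomputed values for 176 named genes, 2308 stayed on their side of the threshold, 304 lost the call, 17 gained one and 0 reversed. Median-ratio scaling and quantile normalization moved the median of all genes to 0.01 and -0.03. TPM hold no read depth, so no counting error is known.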

Other observations

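Families outside the lists, chosen after their values were seen, also held called rises after CX3CL1. Whether they respond apart from the interferon-stimulated list was not tested. Among the IFI200 genes, a DNA-binding family with shared sequence, IFI202B stood at 214, 198 and 210.4 TPM without treatment and 399, 796 and 646 TPM after CX3CL1, a log2 fold change of 1.5 ± 0.22 (adjusted p = 0.0026). In the same family IFI203 and MNDAL rose by 1.59 ± 0.19 (adjusted p = 6.77e-04) and 1.58 ± 0.27 (adjusted p = 0.00558). Of galectins, which bind cell surface sugars, LGALS9 stood at 149.7, 109.8 and 129.7 TPM without treatment and 209, 196 and 246 TPM after CX3CL1, a change of 0.74 ± 0.14 (adjusted p = 0.0147) that was lost without untreated replicate 2, untreated replicate 3 or CX3CL1 replicate 3 (adjusted p up to 0.0844), and LGALS8 rose by 0.85 ± 0.14 (adjusted p = 0.00622). The galectin ligand LGALS3BP rose by 0.86 ± 0.11 (adjusted p = 8.26e-04). APOL9A and APOL9B, near-identical apolipoprotein L genes whose reads may be shared, rose by 1.24 ± 0.19 (adjusted p = 0.00305) and 1.33 ± 0.20 (adjusted p = 0.00246). The RNA editing enzymes ADAR and APOBEC1 rose by 0.79 ± 0.12 (adjusted p = 0.00323) and 1.25 ± 0.17 (adjusted p = 0.00131). ADAR stood at 36, 31.5 and 35 TPM without treatment and 59.5, 51.4 and 70.1 TPM after CX3CL1, with no overlap between the groups.

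ORC1, a subunit of the complex that marks replication origins, rose by 0.56 ± 0.09 (adjusted p = 0.00539), at 12.8, 12.4 and 14 TPM without treatment and 18.5, 20.7 and 20.1 TPM after CX3CL1, while 0 of the 35 tested cell cycle genes were called. RBP2, a retinol carrier of the intestine, rose by 0.54 ± 0.12 (adjusted p = 0.0403), a call lost without any library other than CX3CL1 replicate 2 (adjusted p up to 0.181).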
